A study of Mus musculus with 6 samples.

Results

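The genes described here are 44 mouse genes of DNA replication and nucleotide synthesis, of the 29393 genes in the deposited count table. They were chosen by name, for known roles between the licensing of replication origins in G1 and the copying of DNA in S phase, by a rule without a measured threshold, although earlier results of these data were known when they were proposed. All 44 passed the expression filter (10 or more counts in 3 or more libraries), as did 14916 genes in all, so each member was tested.

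The RNA came from cDNT, T cells of adult C57BL/6 mice that are labelled double negative (without CD4 and CD8). According to the methods of the study, they had been made in culture from CD4+CD25- T cells, IL-2 and mature dendritic cells, and were purified by sorting, whereas the labels give spleen as the tissue. Cells of the W/ IL-10 group stayed for 24 h in 50 ng/ml IL-10, and those of the W/O IL-10 group had none, with 3 libraries each. The methods add anti-CD3/CD28 antibodies to the IL-10 culture, the labels do not mention them, and neither source states whether the control cells received them. IL-10 is a cytokine that signals through STAT3, and the comparison asks how the transcriptome of cDNT differs between the groups. If the control cells had no such antibodies, effects of IL-10 and of the antibodies cannot be told apart. No source ties the libraries to separate animals or cultures, so the p-values measure only the spread between these libraries, which may be technical.

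Before S phase, the origin recognition complex, Cdc6 and Cdt1 load the MCM2-7 helicase onto DNA. Cyclin E and CDK2 then help to activate it with Cdc45, GINS and Mcm10, and polymerases held by the sliding clamp PCNA copy both strands from nucleotides that ribonucleotide reductase and the thymidylate enzymes supply. Transcription of many of these genes is driven by E2F factors once the retinoblastoma proteins are phosphorylated, and proliferating T cells are known for high levels of their mRNAs. In RNA of a whole culture, a change in the share of cells in S phase and a change in mRNA per cell cannot be told apart.

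Promoter sequence is shown for 4 members. Rrm2 had the lowest p by edgeR of all members, and Uhrf1 the lowest among members with an E2F-type match before the start. Mcm6 and Mcm5 carry more such matches than any other member with a window. A match was thus a condition for choosing Uhrf1, Mcm6 and Mcm5. Each run is the 250 bases before a RefSeq transcription start on the mouse build GRCm38.p6, written 5′ to 3′ on the strand of the gene. Capitals mark E2F-type matches (TTTCGCGC, TTTGGCGC, TTTCCCGC or TTTGCCGC, on either strand) and CCAAT boxes (CCAAT or its reverse ATTGG). The stretches are chr12:24708004-24708253 on the plus strand, chr17:56304063-56304312 on the plus strand (the second of its 2 RefSeq starts), chr1:128359706-128359955 on the minus strand and chr8:75109259-75109508 on the plus strand.
Rrm2: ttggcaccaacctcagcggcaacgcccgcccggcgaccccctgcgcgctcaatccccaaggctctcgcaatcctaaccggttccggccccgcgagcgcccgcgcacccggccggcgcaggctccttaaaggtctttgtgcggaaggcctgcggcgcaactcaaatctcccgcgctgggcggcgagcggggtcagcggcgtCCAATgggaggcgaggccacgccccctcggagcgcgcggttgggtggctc
Uhrf1: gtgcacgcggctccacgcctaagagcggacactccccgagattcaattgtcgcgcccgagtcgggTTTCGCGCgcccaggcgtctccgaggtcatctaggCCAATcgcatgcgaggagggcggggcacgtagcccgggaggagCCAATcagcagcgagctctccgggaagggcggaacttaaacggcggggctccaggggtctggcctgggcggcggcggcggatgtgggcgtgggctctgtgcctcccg
Mcm6: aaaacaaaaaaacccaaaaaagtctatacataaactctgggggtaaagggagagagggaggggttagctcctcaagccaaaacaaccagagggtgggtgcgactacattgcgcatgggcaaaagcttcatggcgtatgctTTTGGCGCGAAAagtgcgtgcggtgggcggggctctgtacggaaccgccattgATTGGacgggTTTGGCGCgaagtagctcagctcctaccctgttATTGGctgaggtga
Mcm5: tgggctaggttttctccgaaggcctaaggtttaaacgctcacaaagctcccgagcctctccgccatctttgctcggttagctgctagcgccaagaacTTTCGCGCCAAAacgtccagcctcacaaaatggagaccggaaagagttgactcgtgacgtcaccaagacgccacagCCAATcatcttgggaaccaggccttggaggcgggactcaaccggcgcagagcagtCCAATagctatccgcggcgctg

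The Rrm2 stretch held a CCAAT box and no E2F-type match. In Uhrf1 an E2F-type match lay 185 bases before the start, with 2 CCAAT boxes. Mcm6 had matches 110, 106 and 47 bases before the start (the farther 2 overlap), and Mcm5 had an overlapping pair at 153 and 149 bases. RefSeq windows (250 bases before to 50 after a start) were found for 36 of the 44 members, in 41 windows. E2F-type matches stood in 34.1% of the member windows, against 2.26% of 32851 windows of all genes. For CCAAT boxes the shares were 56.1% and 37.4%. The CHR element (TTTGAA or TTCGAA, either strand), known from genes of mitosis, stood in 14.6% of member windows and 19.2% of all windows, and in 77.8% of the 27 windows of the mitosis and spindle genes compared below. A match describes the letters of a window and is not a measured binding site. The 14 members with an E2F-type match had a median log2 fold change (W/ IL-10 over W/O IL-10) of 0.18, and the 22 without one had 0.20.

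Library totals were 22953260 to 23967088 counts W/O IL-10 and 21619420 to 22958891 W/ IL-10, and no pair of libraries was identical. Levels are given as CPM, the count relative to a library size scaled by the TMM method, on which 3 counts correspond to 0.123 to 0.146 CPM (counting error only). W/O IL-10 replicate 1 stood apart. It was the lowest of the 6 libraries for 33 of the 44 members (75.0%), against 25.1% of all tested genes, and its members lay at a median of -0.18 on the log2 scale from the mean of replicates 2 and 3, against 0.0066 over all tested genes. Each main result is therefore given with and without it. Of the markers of the labelled cells, the 9 T cell genes summed to 2896 to 3243 CPM W/O IL-10 and 3763 to 3849 CPM W/ IL-10, and Cd4 lay at up to 1.55 CPM. The CD8 coreceptor genes were not absent, with Cd8a at 95.8 to 119 CPM W/O IL-10 and 139 to 169 CPM W/ IL-10. The 11 dendritic cell markers in the table summed to 231 to 418 CPM and 202 to 326 CPM (Clec9a at no more than 3 counts in any library), the 6 B cell markers to 209 to 387 CPM and 171 to 272 CPM, and the 10 macrophage markers to 26.7 to 36.2 CPM and 31.2 to 34.4 CPM. Their part in the results below was not tested.

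In cDNT kept with IL-10, most replication genes lay slightly higher than in cDNT without it, and Rrm2, the small subunit of ribonucleotide reductase, was the 1 member that rose by the test. The log2 fold change was above 0 in 41 of the 44 members, where 51.2% of all tested genes were above 0. The median member differed by 0.20 on the log2 scale (1.15-fold), against 0.0063 over all tested genes, and the range ran from -0.48 (Fen1) to 0.58 (Ccne2). The median standard error of a member was 0.099 (n = 3 libraries per group), so that most single differences lay within a few standard errors of 0. No member reached both a fold of 1.5 and an adjusted p under 0.05, a pair of thresholds that 1.45% of all tested genes passed.

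The edgeR quasi-likelihood test with Benjamini-Hochberg adjustment over all tested genes called 1 of 44 members higher and none lower at an adjusted p under 0.05, where 1.21% of all tested genes were called higher and 2.19% in either direction. At an unadjusted p under 0.05, 17 members were higher and 0 lower, against 7.58% of all tested genes higher. In 21 members all 3 W/ IL-10 libraries lay above all 3 W/O IL-10 libraries, and in 0 members below, where 11.3% of tested genes were fully separate in the first direction and 11.2% in the second. With library totals alone as scaling, 12 members were separate upward (7.01% of all tested genes) and none was called (2.04% of all tested genes in either direction). Under the 4 scalings tried with edgeR, 38 to 41 members had a log2 fold change above 0.

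Without W/O IL-10 replicate 1, Rrm2 was again the 1 member called, where 2.03% of all tested genes were called higher. The median log2 fold change of the members was then 0.15, with 39 of 44 above 0 (51.1% of all tested genes). With 2 control libraries, 24 members were fully separate upward (17% of all tested genes) and 1 (Prim2) downward (15.3% of all tested genes). With each other library left out in turn, 0 members were called, where 0.238% to 1.32% of all tested genes were in either direction. DESeq2 called 5 members higher (Prim1, Pcna, Rrm2, Uhrf1 and Ccne1), against 2.86% of all genes it gave an adjusted p. In the plot of members by library, the first control column is the bluest for most genes.

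**Figure D1:**
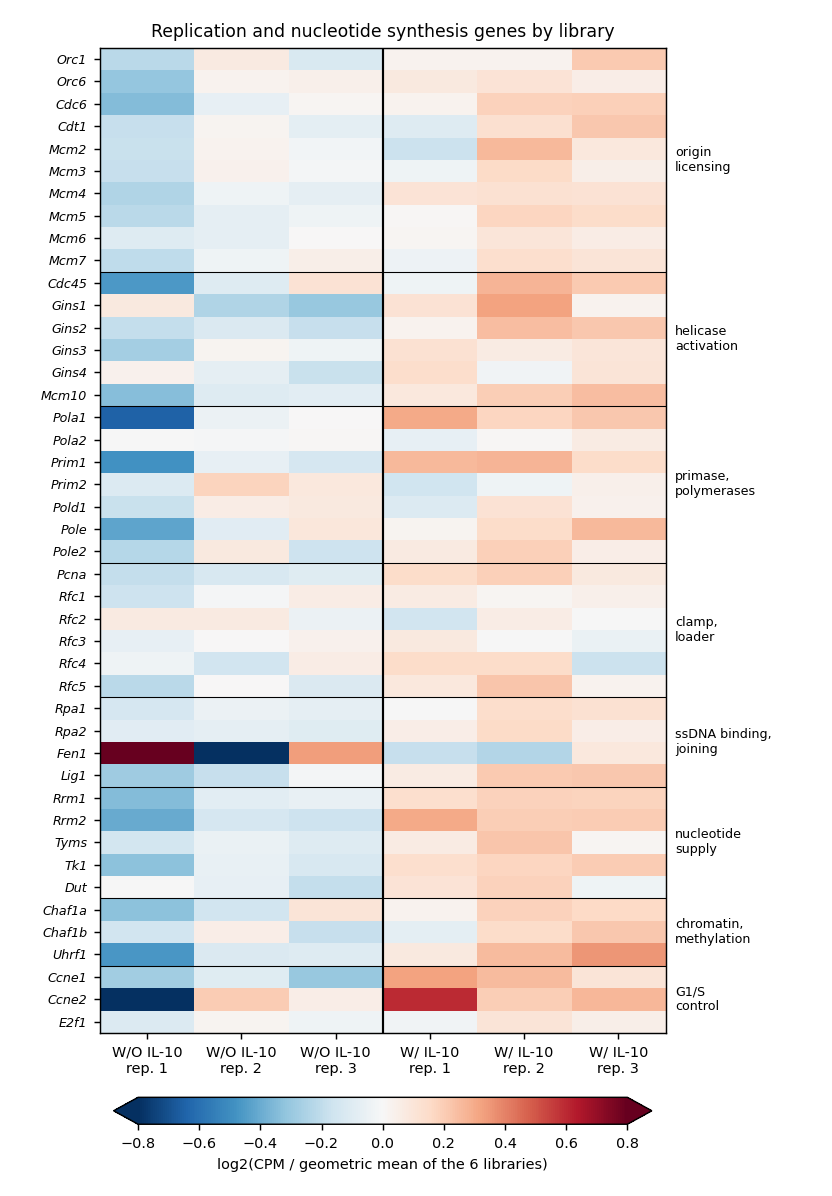
Heat map of the 44 members (rows, by role) in the 6 libraries (columns), coloured by log2 of the CPM over the geometric mean of the 6 libraries, with values beyond 0.8 in either direction shown in the end colour. The first control column is the lowest of the 6 in 33 rows, and the 3 W/ IL-10 columns lie above all W/O IL-10 columns in 21 rows.

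Among the 5 genes of nucleotide supply, the median log2 fold change was 0.32 (0.23 without W/O IL-10 replicate 1) and 4 had separate groups. Rrm2 (ENSMUSG00000020649, chr12:24708241-24714146, plus strand, GRCm38) measured 102, 123 and 120.2 CPM in the W/O IL-10 libraries and 166, 155 and 156 CPM in the W/ IL-10 libraries. All 3 W/ IL-10 libraries lay above all 3 controls, of which replicate 1 was the lowest. Rrm2 rose 1.38-fold (log2 fold change 0.47 ± 0.087 (SE), adjusted p = 0.0351), and by 0.38 on the log2 scale without W/O IL-10 replicate 1 (adjusted p = 0.0169). Leaving out any of the other 5 libraries moved its adjusted p to 0.0698 to 0.160 with log2 fold changes of 0.43 to 0.51. Rrm1, the large subunit of the same enzyme, measured 126, 151 and 154 CPM W/O IL-10 and 176, 182 and 182 CPM W/ IL-10 (log2 fold change 0.32 ± 0.089 (SE), adjusted p = 0.116). Its groups did not overlap either, and the 3 W/ IL-10 libraries lay within a narrow range. Tk1, the kinase that salvages thymidine, measured 37.6, 45.3 and 43.2 CPM W/O IL-10 and 51.8, 53.1 and 54.2 CPM W/ IL-10 (log2 fold change 0.34 ± 0.089 (SE), adjusted p = 0.107), again without overlap. Tyms, which makes thymidylate, and Dut, which removes dUTP, had log2 fold changes of 0.20 and 0.18, and Dut overlapped between groups.

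The genes that license origins had small differences. All 10 had a log2 fold change above 0, with a median of 0.16 (0.091 without W/O IL-10 replicate 1) and none called. W/O IL-10 replicate 1 was the lowest library for all 10 of them. Mcm4, a helicase subunit, measured 134, 156 and 152 CPM W/O IL-10 and 172, 173 and 172 CPM W/ IL-10 (log2 fold change 0.23 ± 0.077 (SE), adjusted p = 0.210). The W/ IL-10 libraries of Mcm4 were nearly identical and above every control. Mcm5 measured 123, 136 and 139 CPM W/O IL-10 and 143, 161 and 158 CPM W/ IL-10 (log2 fold change 0.22 ± 0.081 (SE), adjusted p = 0.257), also without overlap. Mcm2, in contrast, measured 100.5, 116 and 112 CPM W/O IL-10 and 101, 136 and 121 CPM W/ IL-10 (log2 fold change 0.12 ± 0.11 (SE), adjusted p = 0.658), and W/ IL-10 replicate 1 lay inside the control range. Cdc6, the loader of the helicase, measured 19.0, 23.2 and 24.5 CPM W/O IL-10 and 24.7, 27.5 and 27.6 CPM W/ IL-10 (log2 fold change 0.26 ± 0.12 (SE), adjusted p = 0.344), and its groups were separate by a narrow gap. The other 6 (Orc1, Orc6, Cdt1, Mcm3, Mcm6 and Mcm7) lay between 0.11 and 0.17 on the log2 scale, and Orc6 and Mcm6 had separate groups.

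The 6 genes that activate the helicase had a median log2 fold change of 0.30 (0.23 without W/O IL-10 replicate 1), all above 0 and none called. Mcm10 measured 21.4, 25.2 and 25.5 CPM W/O IL-10 and 28.7, 31.0 and 32.1 CPM W/ IL-10 (log2 fold change 0.35 ± 0.10 (SE), adjusted p = 0.139), with separate groups. Gins1, a GINS subunit, measured 7.89, 6.33 and 6.07 CPM W/O IL-10 and 8.11, 9.37 and 7.62 CPM W/ IL-10 (log2 fold change 0.31 ± 0.16 (SE), adjusted p = 0.420). It went against the general pattern of the control libraries, since replicate 1 was the highest of them and lay within the W/ IL-10 range, and its log2 fold change was 0.42 without that library. Gins2 measured 13.2, 13.9 and 13.3 CPM W/O IL-10 and 15.4, 17.9 and 17.5 CPM W/ IL-10 (log2 fold change 0.33 ± 0.11 (SE), adjusted p = 0.191), without overlap, but 67.3% of its exon bases are also covered by Gse1 on the opposite strand. Cdc45, Gins3 and Gins4 lay between 0.15 and 0.29. Whether counting used strand is not stated in the sources used here, so how far the counts of such overlapping genes follow each gene is not known.

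Among the 7 primase and polymerase genes, subunits of the same enzyme had different values. Prim1, the catalytic primase subunit, measured 24.6, 32.9 and 31.4 CPM in the W/O IL-10 libraries and 41.2, 41.6 and 38.1 CPM in the W/ IL-10 libraries (log2 fold change 0.44 ± 0.12 (SE), adjusted p = 0.108). All W/ IL-10 libraries were above all controls, and its log2 fold change without W/O IL-10 replicate 1 was 0.31 (adjusted p = 0.0825). The regulatory subunit Prim2 stood at -0.10, with overlapping groups. Pola1, the catalytic subunit of DNA polymerase alpha, measured 22.2, 33.7 and 35.0 CPM W/O IL-10 and 43.0, 39.3 and 40.4 CPM W/ IL-10 (log2 fold change 0.43 ± 0.16 (SE), adjusted p = 0.243). W/O IL-10 replicate 1 lay far below the other controls, and the log2 fold change without it was 0.24, while its partner Pola2 stood at 0.0063 with all 6 libraries between 66.1 and 72.2 CPM. Pole, the catalytic subunit of polymerase epsilon, measured 35.1, 44.1 and 49.9 CPM W/O IL-10 and 47.6, 51.9 and 56.2 CPM W/ IL-10 (log2 fold change 0.27 ± 0.13 (SE), adjusted p = 0.385), and W/O IL-10 replicate 3 overlapped with the W/ IL-10 libraries. Pold1 and Pole2 had log2 fold changes of 0.028 and 0.20. The differences between partner subunits were not tested.

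The clamp and its loader had the lowest median of the 8 role groups, a log2 fold change of 0.082 over 6 genes (0.043 without W/O IL-10 replicate 1). Pcna (ENSMUSG00000027342, chr2:132249162-132253314, minus strand) measured 227, 237 and 241 CPM in the W/O IL-10 libraries and 286, 295 and 273 CPM in the W/ IL-10 libraries (log2 fold change 0.28 ± 0.072 (SE), adjusted p = 0.102). The groups of Pcna were separate by a wide gap and the controls were close together, so that its log2 fold change without W/O IL-10 replicate 1 was 0.24 (adjusted p = 0.125), but it was 0.13 with GC content and length corrected for. Of its 50-base stretches 19.1% also occur in other transcripts, among them the pseudogene Pcna-ps2. Rfc5, a loader subunit, measured 32.8, 38.2 and 35.1 CPM W/O IL-10 and 40.4, 44.5 and 38.8 CPM W/ IL-10 (log2 fold change 0.22 ± 0.094 (SE), adjusted p = 0.319), without overlap. Rfc4, another, measured 12.3, 11.3 and 13.2 CPM W/O IL-10 and 13.99, 13.99 and 11.2 CPM W/ IL-10 (log2 fold change 0.089 ± 0.13 (SE), adjusted p = 0.802), and here W/ IL-10 replicate 3 was the lowest of all. Rfc1, Rfc2 and Rfc3 lay between -0.062 and 0.075, all with overlapping groups.

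Of the 4 genes that bind single strands or join fragments, 3 had separate groups and the median log2 fold change was 0.17 (0.15 without W/O IL-10 replicate 1). Lig1, which seals Okazaki fragments, measured 74.0, 79.2 and 89.0 CPM W/O IL-10 and 94.2, 104 and 104 CPM W/ IL-10 (log2 fold change 0.32 ± 0.087 (SE), adjusted p = 0.114). Rpa2, a subunit of the single-strand binding protein RPA, measured 58.8, 59.6 and 58.4 CPM W/O IL-10 and 64.9, 69.5 and 65.0 CPM W/ IL-10 (log2 fold change 0.17 ± 0.069 (SE), adjusted p = 0.278), with the controls within about 1 CPM of each other. Both were separate, as was Rpa1 at 0.17. Fen1, the flap endonuclease, was counted at only 53, 11 and 29 reads in the W/O IL-10 libraries and 18, 19 and 24 in the W/ IL-10 libraries (log2 fold change -0.48 ± 0.51 (SE), adjusted p = 0.707). The 3 controls alone spanned the whole range, and without W/O IL-10 replicate 1 the log2 fold change turned to 0.11. Of its exon bases 84.2% are overlapped by Gm10143 and Tmem258 on the other strand, and how far its count follows the level of the gene was not tested.

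Uhrf1, which brings the maintenance DNA methyltransferase to newly copied DNA, measured 69.1, 88.3 and 88.9 CPM in the W/O IL-10 libraries and 101, 114 and 122 CPM in the W/ IL-10 libraries (log2 fold change 0.45 ± 0.11 (SE), adjusted p = 0.0919). Its groups were separate, with control replicate 1 the lowest, and its log2 fold change was 0.33 without that library (adjusted p = 0.0700). The gene (ENSMUSG00000001228, chr17:56303321-56323486, plus strand) shares 15.4% of its 50-base stretches with other transcripts, among them Gm5648. The subunits of the chromatin assembly factor CAF-1 overlapped between groups. Chaf1a measured 21.4, 24.1 and 28.8 CPM W/O IL-10 and 27.3, 30.5 and 29.9 CPM W/ IL-10 (log2 fold change 0.24 ± 0.12 (SE), adjusted p = 0.403), with 52.5% of its exon bases overlapped by Ubxn6. Chaf1b measured 24.2, 27.9 and 23.7 CPM W/O IL-10 and 25.5, 29.8 and 31.3 CPM W/ IL-10 (log2 fold change 0.19 ± 0.11 (SE), adjusted p = 0.474). The median of these 3 chromatin genes was 0.24 with all libraries and 0.15 without W/O IL-10 replicate 1.

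Of the 3 genes of G1/S control, the cyclins E had the larger values and the transcription factor E2f1 a small one. Ccne1 (ENSMUSG00000002068, chr7:38097984-38107534, minus strand) measured 23.9, 27.1 and 23.5 CPM in the W/O IL-10 libraries and 36.3, 34.5 and 31.1 CPM in the W/ IL-10 libraries (log2 fold change 0.45 ± 0.10 (SE), adjusted p = 0.0608). All W/ IL-10 libraries lay above all controls, control replicate 1 was not the lowest here, and the log2 fold change without it was 0.42 (adjusted p = 0.0536). Ccne2 measured 4.04, 11.7 and 10.5 CPM W/O IL-10 and 15.3, 11.6 and 12.2 CPM W/ IL-10 (log2 fold change 0.58 ± 0.33 (SE), adjusted p = 0.466). Its large value rested on W/O IL-10 replicate 1, without which it was 0.22, and the groups overlapped. E2f1 measured 16.3, 17.9 and 17.2 CPM W/O IL-10 and 17.3, 19.0 and 18.2 CPM W/ IL-10 (log2 fold change 0.083 ± 0.10 (SE), adjusted p = 0.742), with all 6 libraries close together and the groups overlapping. The group median was 0.45, and 0.22 without W/O IL-10 replicate 1.

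The plot of fold changes sets both estimates side by side for each member. Leaving out W/O IL-10 replicate 1 moved most points toward 0 and left those of Rrm2, Ccne1, Uhrf1 and Gins1 above 0.3 on the log2 scale, together with Prim1 and Gins2.

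**Figure D2:**
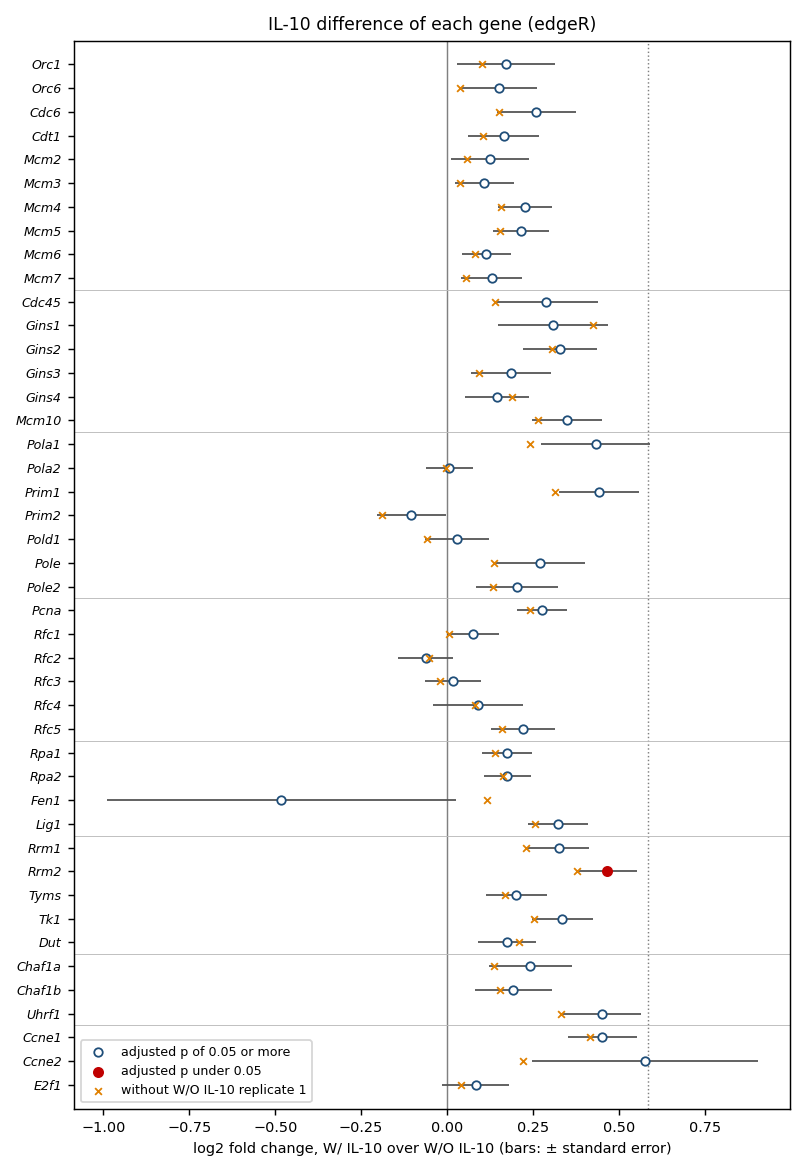
Log2 fold change (W/ IL-10 over W/O IL-10) of the 44 members, by role, with circles and bars for the 6-library estimate ± standard error, filled red at an adjusted p under 0.05, and crosses for the estimate without W/O IL-10 replicate 1. The dotted line is a fold of 1.5, and of 44 circles 41 lie right of 0 and 1, Rrm2, is red.

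Levels of different genes were compared per length, as CPM per kilobase of annotated exon. This length joins the exons of all annotated transcripts of a gene, so each place also depends on the annotation. Pcna was the highest at 97.9 ± 3.07 (SD, n = 3) W/O IL-10 with 119 ± 4.68 W/ IL-10, and Mcm6 was next at 58.7 ± 2.26 and 63.5 ± 1.70. Rrm2 (41.5 ± 4.07) and Mcm4 (41.0 ± 3.14) did not differ beyond their spread W/O IL-10, whereas W/ IL-10 they stood at 57.4 ± 2.29 and 48.0 ± 0.210. Mcm3, Mcm5, Mcm7 and Dut followed between 35.3 and 31.0 W/O IL-10, each within the spread of its neighbour. Of the helicase subunits Mcm2 was the lowest at 15.7 ± 1.17. Its joined exons span 6956 bases, however, against 3589 to 4666 for Mcm3 to Mcm7. In CPM its W/O IL-10 mean was 109.5, nearer to the 132 of Mcm3. How far its place per length follows from the annotation was not tested. The activators of the helicase were mostly lower, from 3.12 ± 0.299 for Mcm10 to 23.1 ± 1.68 for Gins4. At the low end stood Ccne2 (2.501 ± 1.18), Orc1 (2.06 ± 0.213) and Fen1 (0.533 ± 0.353), of which the first 2 overlapped in their spread. The place of Fen1 is uncertain, given the genes that overlap most of its exon bases. The plot of levels per length shows the same order along its axis, with the W/ IL-10 points at or above the control points except for 3 genes.

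**Figure D3:**
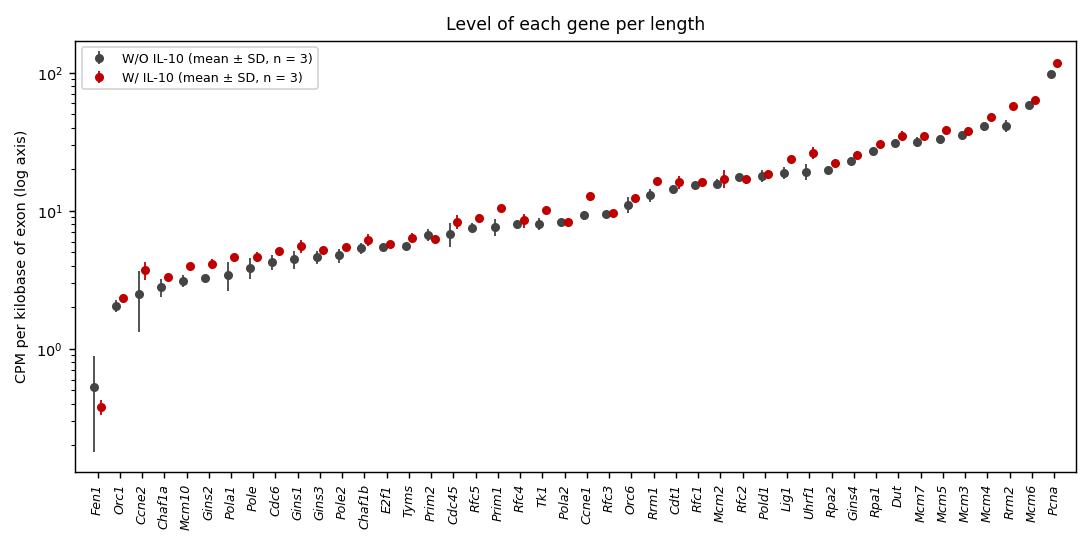
Level of each member in CPM per kilobase of exon (log axis), ordered by the W/O IL-10 mean, with points and bars for the mean ± SD of 3 libraries in each group. Levels run from below 1 for Fen1 to 97.9 for Pcna W/O IL-10, and the W/ IL-10 mean is lower in 3 genes (Fen1, Prim2 and Rfc2).

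W/O IL-10 replicate 1 departed from the other controls along the GC content of the transcripts. Over all tested genes of up to 40% GC, its median log2 difference from the mean of replicates 2 and 3 was -0.74 (693 genes). It was -0.21 between 40% and 45%, 0.0048 between 45% and 50%, 0.083 between 50% and 55% and 0.076 above 55%. The members lay between 37.5% and 60.6% GC, and their medians in the same bins were -1.45 (Ccne2 alone), -0.23, -0.22, -0.090 and -0.17. In the bins above 45%, which held 16, 17 and 4 members, the medians of the members were below 0 and those of all tested genes above 0. What part GC content had in the low place of the members was not tested. Across the 44 members, which share the libraries, the Pearson correlation between GC content and this difference was 0.37.

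When each library was corrected for the GC content and length of its genes, the members had a median log2 fold change of 0.22, with 40 of 44 above 0, and 5 members were called higher (Lig1, Rrm2, Tk1, Uhrf1 and Ccne1), where 2.41% of all tested genes were. With the correction and without W/O IL-10 replicate 1, 5 members were called as well, where 4.48% of all tested genes were in either direction. The log2 fold changes of Ccne2 and Pola1 were 0.29 and 0.29 under the correction, and those of Uhrf1 and Tk1 were 0.52 and 0.42. The right panel of the plot on the control library shows these shifts gene by gene.

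**Figure D4:**
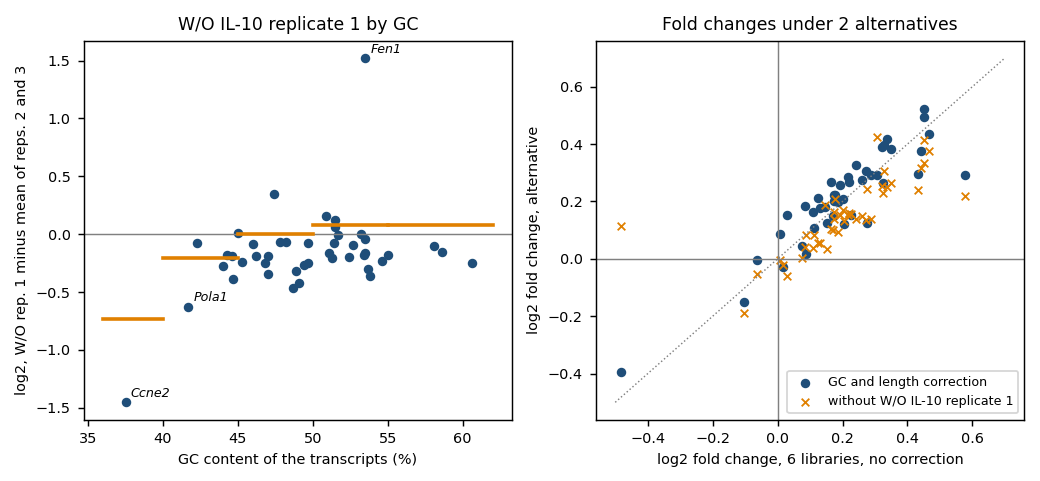
Left, log2 difference of W/O IL-10 replicate 1 from the mean of replicates 2 and 3 for each member against the GC content of its transcripts, with orange bars for the median of all tested genes in 5 GC bins. Right, log2 fold change of each member with GC and length correction (circles) and without W/O IL-10 replicate 1 (crosses) against the uncorrected 6-library value, where 40 circles and 39 crosses lie above 0.

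Further genes of the same pathways were read from 4 lists. Over all tested genes, 7.58% were higher at an unadjusted p under 0.05 by edgeR and 2.19% were called in either direction. Of the genes to which DESeq2 gave an adjusted p, it called 2.86% higher. Of 34 further replication factors none passed the test (11 at an unadjusted p under 0.05, all higher, and 3 by DESeq2), and their median log2 fold change was 0.20 (0.11 without W/O IL-10 replicate 1). Clspn, which relays the replication checkpoint, measured 31.5, 32.7 and 43.2 CPM W/O IL-10 and 51.3, 52.8 and 57.4 CPM W/ IL-10 (log2 fold change 0.59 ± 0.13 (SE), adjusted p = 0.0526). Its groups were separate, and without W/O IL-10 replicate 1 its adjusted p was 0.0353. Of 31 further nucleotide synthesis enzymes tested none passed either (5 at an unadjusted p under 0.05, all higher, and 1 by DESeq2), with a median of 0.013, close to the median of all tested genes.

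Of 31 further G1/S regulators tested, 2 rose and 1 fell, where 2.19% of all tested genes were called in either direction. The median of the list was 0.12. Cdkn2d, an inhibitor of the cyclin D kinases, measured 43.6, 40.6 and 43.2 CPM W/O IL-10 and 62.7, 66.7 and 67.4 CPM W/ IL-10 (log2 fold change 0.63 ± 0.074 (SE), adjusted p = 0.00555). Cyclin D2 (Ccnd2) measured 272, 273 and 297 CPM W/O IL-10 and 227, 205 and 208 CPM W/ IL-10 (log2 fold change -0.39 ± 0.078 (SE), adjusted p = 0.0422). Both were separate between groups, in opposite directions. E2f2, a transcription factor of the same family as E2f1, measured 21.3, 27.3 and 28.4 CPM W/O IL-10 and 38.3, 38.3 and 37.7 CPM W/ IL-10 (log2 fold change 0.57 ± 0.12 (SE), adjusted p = 0.0447). Whether E2f2 and E2f1 differed in their response was not tested. With W/O IL-10 replicate 1 left out 4 of the list were called, where 3.58% of all tested genes were in either direction. The count was 1 with W/O IL-10 replicate 2, W/O IL-10 replicate 3, W/ IL-10 replicate 1 or W/ IL-10 replicate 2 left out. Without W/ IL-10 replicate 3 none was called. The calls of Ccnd2 and E2f2 were lost without each library other than W/O IL-10 replicate 1 (adjusted p = 0.0893 to 0.205 for Ccnd2 and 0.0606 to 0.193 for E2f2), and that of Cdkn2d without W/ IL-10 replicate 3 (0.0588). Of 13 further chromatin factors, the histone chaperone Asf1b rose (log2 fold change 0.47 ± 0.10 (SE), adjusted p = 0.0490), from 25.9, 32.2 and 30.1 CPM to 41.6, 40.5 and 40.1 CPM. It lost the call without any 1 of the libraries other than W/O IL-10 replicate 1.

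The most similar other genes, 30 of mitosis and the spindle, had a higher median log2 fold change than the replication genes, 0.50 against 0.20. Of these 30, 5 rose (Ube2c, Birc5, Cdk1, Mad2l1 and Ccnb1), where 1.21% of all tested genes were called higher. Cdk1, the mitotic kinase, measured 46.5, 44.8 and 50.3 CPM W/O IL-10 and 65.9, 70.4 and 63.8 CPM W/ IL-10 (log2 fold change 0.50 ± 0.079 (SE), adjusted p = 0.0205). W/O IL-10 replicate 1 was not set apart in Cdk1, but it was the lowest of the 6 libraries for 28 of the 30 genes. Without it, 13 of the 30 were called (3.58% of all tested genes in either direction) and the median was 0.35. With W/O IL-10 replicate 3 left out there were 5 calls (1.32% of all tested genes), and with any other library left out 0. The difference between the lists was not tested. In the plot of the lists, the replication genes and the further replication factors have nearly the same median, above that of the nucleotide enzymes and below that of the mitosis genes.

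**Figure D5:**
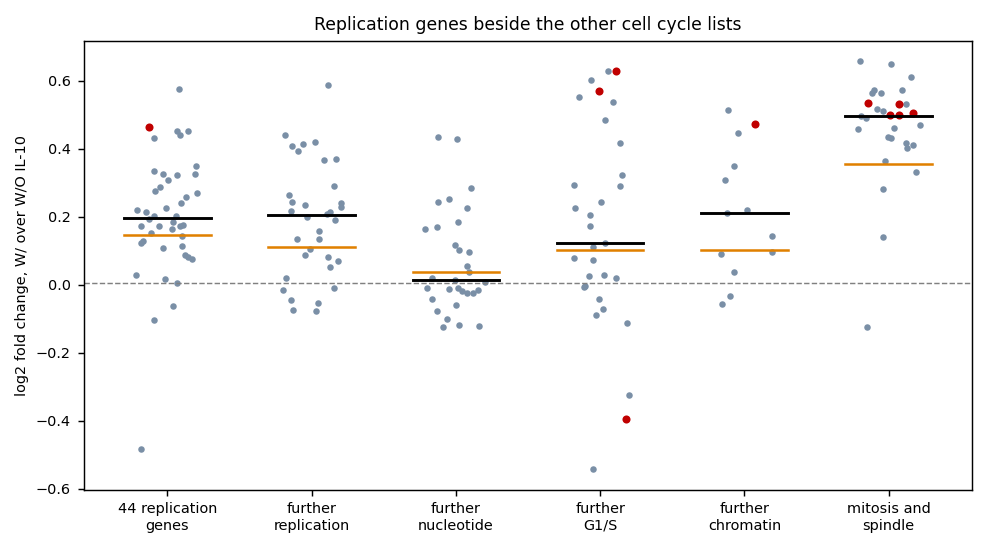
Log2 fold change (W/ IL-10 over W/O IL-10) of each tested gene in 6 lists, with red points at an adjusted p under 0.05, black lines for the median with 6 libraries and orange lines for the median without W/O IL-10 replicate 1. The dashed line is the median of all tested genes, 0.0063, and the black line is at 0.20 for the 44 members and 0.50 for mitosis and spindle.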

How the data were processed

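RNA of 6 libraries was sequenced, 3 for each group (W/ IL-10, W/O IL-10), grouped by the sample labels. The authors deposited 1 table of whole-number counts per Ensembl gene, without normalization. The submitters' processing notes list HISAT2, HTSeq and GRCm38, whereas the methods of the study name TopHat, Cufflinks and UCSC annotation. The methods name a NEBNext kit and the labels a TruSeq kit, and the series text speaks of duplicates. Versions and use of strand are not given in the sources used here.

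TMM factors and the quasi-likelihood test of edgeR 4.0.16 (with limma 3.58.1 in R 4.3.3) were applied to the 14916 genes that had 10 or more counts in 3 or more libraries, over all 6 libraries and without a block. Benjamini-Hochberg adjustment ran over all tested genes, with a threshold of 0.05 and a further fold threshold of 1.5. Fold changes are not shrunken, and the standard error is the log2 fold change over the square root of F.

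Symbols, exon lengths, GC content and overlaps come from GENCODE M21, in which 29332 of 29393 identifiers were found, and promoter windows from RefSeq (GRCm38.p6). Shared sequence is the percent of the 50-base stretches of a gene found in the transcripts of other genes. The GC and length correction fitted splines with 5 degrees of freedom in each library to 99.9% of tested genes and entered the fit as offsets.

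All lists, like the members, were chosen with earlier results of these data known. Values by library are given for members called, for the 3 of largest absolute log2 fold change in each of 8 role groups, and for Pcna, Mcm2, E2f1 and Rrm2, which makes 25 members. Of the further lists, genes called or with 1 of the 2 largest changes could be named. A gene that this rule names is not reported here. Genes most like the mean of the members were ranked by Pearson correlation over the 6 libraries. The choice of the 4 promoters shown was made after the values were seen. Alternatives were DESeq2 1.42.0, RLE and upper-quartile factors, library totals, other count filters, limma-voom, the replicate block, the GC and length correction, a null fold of 1.5 and each library left out. The GC and length correction with W/O IL-10 replicate 1 left out was added after seeing the data. Of the fits, only the edgeR test without a block or correction was run on simulated counts. The alternatives were not tested in this way. Tables and plots used Python 3.11.15, pandas 2.3.3 and matplotlib 3.10.9.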

Additional observations from a re-analysis of the deposited data

How the results depend on the processing

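The median log2 fold change of the 44 members stayed above 0 in every alternative and ran from 0.13 with library totals to 0.23. It was 0.15 to 0.23 with 1 library left out. The number of members called was 1 with the reported fit, 5 with DESeq2, 0 with library totals, 9 without a filter on low counts, 5 with the GC and length correction, 5 with that correction and W/O IL-10 replicate 1 left out, and 0 to 1 with 1 library left out. None passed a fold of 1.5 as well in any alternative. Separate groups were found in 21 members, in 12 with library totals and in 23 to 30 with 1 library left out (either direction, 30.8% to 35.4% of all tested genes then), a count that DESeq2, limma-voom and the block fits do not give. Calls among the further replication factors were 0 as reported, 3 with DESeq2, 1 with upper-quartile factors, 7 without a filter, 1 with limma-voom, 2 with the correction and 2 with it and replicate 1 left out, and 0 to 1 with 1 library left out. Among the nucleotide enzymes they were 0, 1 with DESeq2, 2 without a filter, 1 with the correction and 0 with each library left out. Among the G1/S regulators they were 3, 7 with DESeq2, 9 without a filter, 6 with the correction, 6 with it and replicate 1 left out, and 0 to 4 with 1 library left out. Among the chromatin factors they were 1, 0 with RLE factors, library totals or at least 10 counts in every library, 3 without a filter and 0 to 1 with 1 library left out. Among the mitosis genes they were 5, 18 with DESeq2, 26 without a filter, 12 with the correction, 14 with it and replicate 1 left out, and 0 to 13 with 1 library left out. The number of tested genes differed between alternatives, so shares are given with the calls over all tested genes in either direction. These were 327 (2.19%), 696 with DESeq2 (5.17%), 1239 without a filter (4.22%) and 577 with the correction (3.87%). They were 655 (4.48%) with it and replicate 1 left out and 952 (6.39%) with it and the replicate block. With 1 library left out they were 35 to 525 (0.238% to 3.58%). The causes were not tested.

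With the replicate block, 1 member was called (Uhrf1, adjusted p = 0.0401 by edgeR), where 1.9% of all tested genes were in either direction. Rrm2 lost its call (adjusted p = 0.0620), and the further replication factors had 1 call and the chromatin factors 0. The G1/S regulators had 2 calls, without Ccnd2 (adjusted p = 0.0659) and E2f2 (adjusted p = 0.0564). With the block and the GC and length correction together, calls were 11 members, 3 further replication factors, 2 nucleotide enzymes, 9 G1/S regulators, 2 chromatin factors and 26 mitosis genes. No source ties libraries of equal number to each other. Their deviations from the group means correlated at 0.052, -0.057 and 0.11 for replicates 1, 2 and 3. These values come from uncorrected levels in few libraries and cannot settle whether such libraries were paired.

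The log2 fold change of Fen1 ran from -0.89 to 0.11 with 1 library left out, turning sign without W/O IL-10 replicate 1, and was 0.13 with the correction added. The sign also turned for Rfc4, to -0.016 with the correction and that library left out. Of the values of single named members under the alternatives, 384 kept their direction and side of the threshold, 31 newly passed it, 7 no longer did and 3 turned sign. With 3 libraries per group and a median standard error of 0.099 on the log2 scale, differences near the members' median were seldom past the adjusted threshold, and Fen1, at 11 to 53 counts, had a standard error of 0.51.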

Other observations

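Outside the 44 members, the 5 tested genes whose log2 CPM followed the mean of the members most closely over the 6 libraries were Fbxo5, Kif23, Nrm, Fos and Ttk, with Pearson correlations of 0.998, 0.996, 0.996, 0.994 and 0.993. These are descriptions over libraries that all members share, chosen as the highest of all tested genes. Fbxo5 is an inhibitor of the anaphase-promoting complex, Kif23 a kinesin of cytokinesis and Ttk a spindle checkpoint kinase, while Nrm encodes a protein of the nuclear membrane and Fos a subunit of AP-1. The mean of the members, each scaled to SD units over the 6 libraries, was -1.18, -0.22 and -0.29 W/O IL-10 (replicates 1, 2 and 3) and 0.23, 0.86 and 0.61 W/ IL-10. Fos had the largest log2 fold change of the 5 at 0.88 ± 0.23 (SE, n = 3 per group), from 3.27, 5.13 and 5.13 CPM W/O IL-10 to 6.36, 9.59 and 8.90 CPM W/ IL-10, without overlap but with an adjusted p of 0.102 by edgeR. None of the 5 passed the adjusted threshold (adjusted p = 0.0957 to 0.205 by edgeR).

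Among markers of the labelled cells, Cd5, a receptor that dampens T cell receptor signals, fell (log2 fold change -0.47, adjusted p = 0.0467 by edgeR) from 59.4, 56.9 and 70.9 CPM W/O IL-10 to 44.3, 43.3 and 47.1 CPM W/ IL-10. Cd8a and Cd8b1 rose, with log2 fold changes of 0.56 and 0.67 (adjusted p = 0.0369 and 0.0306 by edgeR), in cells labelled double negative. Of the 9 T cell markers, the other 8 had a log2 fold change above 0 and none of these was called. Cd4 was below 0 and not called. Of the 9 dendritic cell markers tested, Itgax, an integrin chain that activated T cells also carry, rose (log2 fold change 1.09, adjusted p = 0.00383 by edgeR), whereas 7 of the 9 were below 0 and none of these was called. All 6 B cell markers were below 0, and no tested marker of the B cell, macrophage, neutrophil or erythroid lists was called. The 5 neutrophil markers summed to 3.10 to 8.70 CPM W/O IL-10 and 4.38 to 7.14 CPM W/ IL-10, and the 6 erythroid markers to 1.12 to 5.52 CPM and 0.666 to 1.65 CPM.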
